A study of Mus musculus with 6 samples.

Results

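Bipolar cells are the interneurons that carry signals from photoreceptors to ganglion and amacrine cells, and their subtypes are set apart by small groups of transcription factors. Rod bipolar cells and ON cone bipolar cells depolarise in light through the metabotropic receptor mGluR6, whereas OFF cone bipolar cells use ionotropic glutamate receptors and hyperpolarise. Vsx1, Irx5, Irx6 and Bhlhe22 are known for OFF cone bipolar types, Isl1 for all ON types, Lhx4 for cone bipolar types, Bhlhe23 for rod bipolar cells and Cabp5, a calcium-binding protein, for rod bipolar cells and some cone types. The 9 genes described here were taken as a named list of such subtype genes, which also held Grik1os, from the 32371 genes of the count table. Grik1os was matched to no identifier in the annotation used and was not analysed here, so that 8 genes were followed.

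The 8 genes were measured in retinal cells of adult C57BL/6J mice, 3 libraries after intravitreal AAV2-GFP and 3 after AAV2-Ezh2-Y726D, a form of the histone methyltransferase Ezh2 without catalytic activity. Every mouse of either group had its optic nerve crushed 2 weeks after the virus, and 3 days later retinal cells bearing CD90.2, which Thy1 encodes, were collected by sorting. The promoter that drives the viral genes is not given in the sources used here. The samples are labelled as retinal ganglion cells, but the sort enriches and does not purify. Whether a library holds cells of 1 mouse or several is not given in the sources used here, and the P values measure only the spread between these libraries.

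Total counts were 9333244 to 23782520 per library, and the share of 1 rRNA gene, CT010467.1, was 50.9% in GFP replicate 2, 52.2% in GFP replicate 3 and 2.55% to 16.1% elsewhere. Ezh2 itself, the check of the labels, was at 22.7, 23.9 and 26.4 CPM (counts scaled to a fixed library size after TMM normalization) in GFP and at 65.2 to 65.6 CPM after Ezh2-Y726D, where the counts do not separate the virus from the cells' own gene. Markers of ganglion cells were present, among them Nefl at 140 to 151 CPM and Thy1 at 99.7 to 111 CPM in GFP. Rod and Müller glia genes were more abundant, with a summed level of 6520 to 6750 CPM for 12 rod genes and Glul at 2940 to 3030 CPM in GFP. In such mixed libraries fewer cells of a type and less RNA per cell cannot be told apart.

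After Ezh2-Y726D overexpression, most bipolar subtype genes were lower than in GFP. The quasi-likelihood test of edgeR was run on 18138 genes, and a gene was called where its Benjamini-Hochberg adjusted P was under 0.05. Of the 8 genes, 6 fell, 1 rose and 1 was not called, where 13.6% of all tested genes were called lower, 13.9% higher and 27.5% in either direction. The 6 genes that fell were Irx6, Lhx4, Vsx1, Cabp5, Isl1 and Bhlhe23, by 1.33-fold to 1.85-fold. Bhlhe22 rose 1.39-fold, and Irx5 did not pass the test. The median log2 fold change of the 8 genes was -0.59, beside 0.00 over all genes tested. With a fold change over 1.5 required as well, which left 5.5% of all tested genes lower and 2.52% higher, 4 of the genes were lower and none higher. The 2 groups of libraries did not overlap for any of the 8 genes, with Ezh2-Y726D below GFP in 7 and above it in 1, where 18.9% of tested genes were wholly below and 19.7% wholly above. These calls depend on the scaling. With library totals in place of TMM factors, in which CT010467.1 counts as part of the library, the median of all genes moved to 0.49 and none of the 8 was called. Relative to that median the genes were at -0.89 (Irx6) to 0.50 (Bhlhe22), which is no independent support, since a change of scaling shifts all genes by nearly the same amount.

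**Figure D1:**
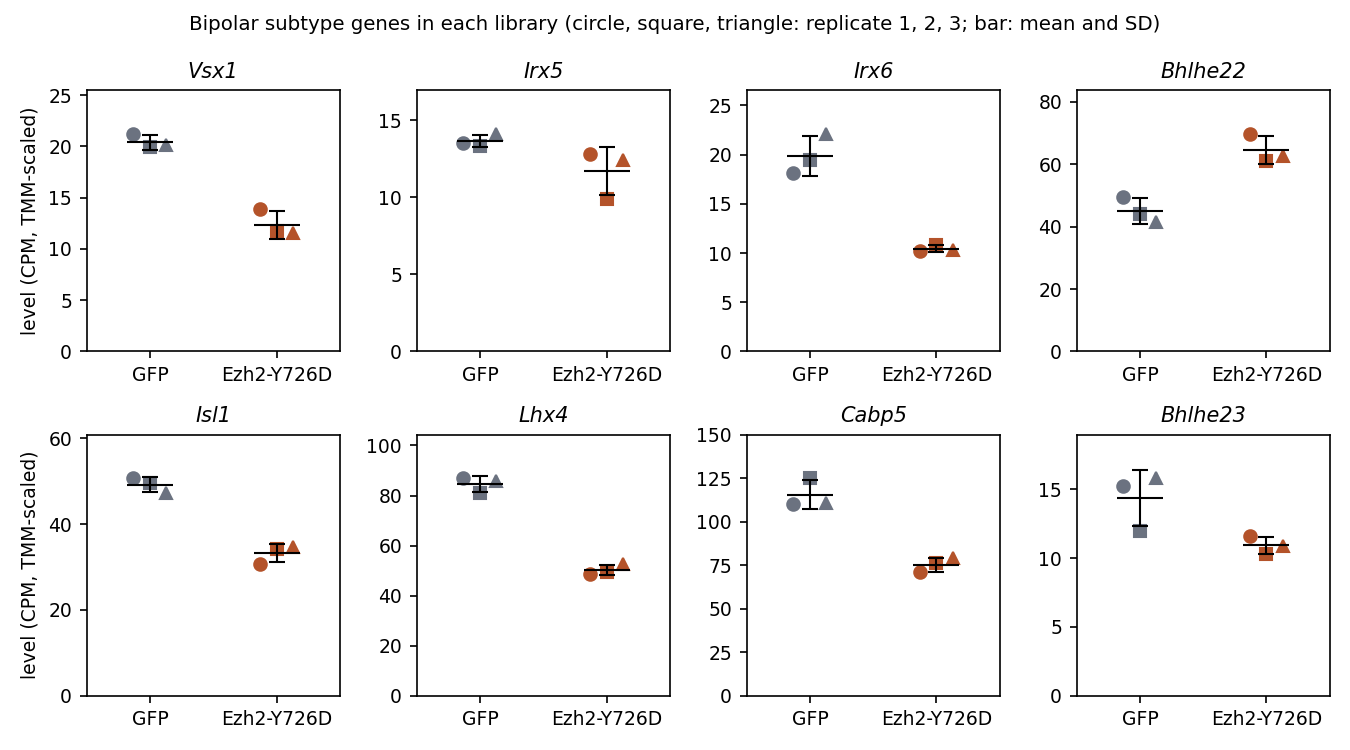
Level of each gene (CPM of the TMM-scaled library, axes from 0) in the 3 GFP and 3 Ezh2-Y726D libraries, with the mean and SD as bars. Irx6 went from 19.9 to 10.4 CPM on average, Bhlhe22 rose from 45.1 to 64.5 CPM, and the groups of Irx5 nearly touch.

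The sequences before the starts of 5 of the 8 genes were in the RefSeq promoter table (GRCm38.p6). The start is that of RefSeq, which can lie inside the GENCODE span of the gene. The Lhx4 window lies wholly and the Vsx1 window mostly within that span, while those of Cabp5 and Isl1 reach into it by their last bases only. The windows were searched on both strands, over the 250 bases before the start, for TAATCC, the core motif of the Otx and Crx homeodomain factors, for TAATTA, bound by many homeodomain factors, and for CANNTG, the E-box bound by basic helix-loop-helix factors. TAATCC was found at 2 places before Cabp5, 160 and 41 bases from the start, and once before Isl1, 177 bases before it, while 6.25% of all 32851 promoters in the table hold it. It was not found before Vsx1, Lhx4 or Bhlhe23. TAATTA, held by 4.84% of all promoters, was found before none of the 5, and an E-box, held by 66.2%, before Vsx1 (2), Isl1 (1) and Bhlhe23 (1). Such matches describe the letters of these windows only. The windows of Cabp5 (chr7:13397905-13398154, plus strand, 44.0% G or C), Isl1 (chr13:116309689-116309938, minus strand, 71.2%) and Vsx1 (chr2:150689138-150689387, minus strand, 54.4%) are shown because these genes fell together and differ in TAATCC, which is in capitals.
Cabp5: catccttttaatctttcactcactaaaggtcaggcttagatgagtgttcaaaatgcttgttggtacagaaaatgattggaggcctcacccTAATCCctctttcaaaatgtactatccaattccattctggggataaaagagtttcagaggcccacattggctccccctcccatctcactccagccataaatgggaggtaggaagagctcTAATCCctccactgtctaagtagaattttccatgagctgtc
Isl1: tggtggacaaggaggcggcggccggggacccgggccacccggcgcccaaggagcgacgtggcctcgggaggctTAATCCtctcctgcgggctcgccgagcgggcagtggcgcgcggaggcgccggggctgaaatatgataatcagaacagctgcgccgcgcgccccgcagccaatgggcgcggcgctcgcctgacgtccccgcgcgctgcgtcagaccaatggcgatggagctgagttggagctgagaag
Vsx1: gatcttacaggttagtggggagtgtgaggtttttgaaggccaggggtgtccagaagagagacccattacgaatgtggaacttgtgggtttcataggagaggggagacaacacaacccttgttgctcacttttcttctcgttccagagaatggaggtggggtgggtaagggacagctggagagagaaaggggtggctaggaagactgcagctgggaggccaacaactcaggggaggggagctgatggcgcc

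Among the genes of OFF cone bipolar cells, Irx6, an Iroquois homeodomain factor, had the largest fall of the 8. It was at 18.1, 19.5 and 22.1 CPM in GFP replicates 1, 2 and 3 and at 10.2, 10.8 and 10.3 CPM after Ezh2-Y726D, so that the lowest GFP library was well above the highest Ezh2-Y726D library. Its log2 fold change was -0.88 (SE 0.0883, adjusted P = 5.86e-09, edgeR). The gene lies on chromosome 8 from 92674288 to 92680956 (GRCm38, GENCODE vM21), and 4.51% of its exonic bases overlap Gm45505 on the opposite strand.

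Vsx1, a paired-like homeodomain factor of OFF cone bipolar types and of an ON type, was at 21.2, 19.9 and 20.1 CPM in GFP and at 13.9, 11.7 and 11.5 CPM after Ezh2-Y726D. The groups did not overlap, and its log2 fold change was -0.74 (SE 0.0862, adjusted P = 9.04e-08, edgeR). It lies on chromosome 2 from 150680702 to 150689360, and no exon of another gene overlaps its exons.

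Irx5 lies on the same chromosome and strand as Irx6, 298 kb before it, and belongs to the same Iroquois cluster. It was at 13.5, 13.3 and 14.1 CPM in GFP and at 12.8, 9.9 and 12.4 CPM after Ezh2-Y726D, where replicate 2 was the lowest. Its log2 fold change was -0.20 (95% interval -0.41 to 0.00, adjusted P = 0.143, edgeR), which leaves a difference of that size or none within the error. The lowest count of any of the 8 genes in a library was that of Irx5 in GFP replicate 3, at 85. The ratio of Irx6 to Irx5 counts within a library, which does not depend on how the libraries are scaled, was 1.34, 1.47 and 1.56 in GFP and 0.792, 1.09 and 0.833 after Ezh2-Y726D. The 2 groups of ratios did not overlap (log2 difference -0.70, exact 2-sided permutation P = 0.1, the smallest that 3 libraries against 3 allow).

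The other Iroquois genes were less abundant. Irx3, the third gene of that cluster, was at 1.81 to 2.88 CPM in GFP and 1.67 to 2.44 CPM after Ezh2-Y726D (log2 fold change -0.36, adjusted P = 0.244, edgeR). Irx2 and Irx4 were at or under 1.42 CPM in every library and were not called, and Irx1 did not pass the filter on low counts.

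Bhlhe22, a basic helix-loop-helix repressor, was the only one of the 8 that rose. It was at 49.6, 44.1 and 41.5 CPM in GFP and at 69.7, 61.2 and 62.7 CPM after Ezh2-Y726D, without overlap, a log2 fold change of 0.48 (SE 0.0625, adjusted P = 6.35e-07, edgeR). Besides OFF cone bipolar cells it is known for amacrine cells. Of 12 tested amacrine genes 10 rose and none fell, with a median log2 fold change of 0.53, and the summed level of the list of 14 was 1240 to 1330 CPM in GFP and 1880 to 1940 CPM after Ezh2-Y726D. Slc6a9, the glycine transporter GlyT1, rose by 0.75, Slc32a1, the vesicular transporter of GABA and glycine, by 0.70 and Gad1, a GABA-synthesising enzyme, by 0.69 on the log2 scale, whereas the starburst genes Chat and Slc18a3 did not pass the filter on low counts. The part of these cells in the rise of Bhlhe22 was not tested.

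Isl1, a LIM homeodomain factor, was at 50.7, 49.7 and 47.3 CPM in GFP and at 30.7, 34.3 and 34.7 CPM after Ezh2-Y726D. All Ezh2-Y726D libraries were below all GFP libraries, with a log2 fold change of -0.58 (SE 0.0607, adjusted P = 1.45e-08, edgeR). Isl1 is known for ganglion cells and starburst amacrine cells as well as for ON bipolar cells. Of 14 ganglion cell genes none fell, 2 rose (Pou4f1 by 0.41 and Thy1 by 0.13 on the log2 scale), and their summed level was 549 to 569 CPM in GFP and 548 to 586 CPM after Ezh2-Y726D. Its paralogue Isl2, which marks some ganglion cells, was at 0.774 to 1.05 CPM in GFP and 0.637 to 1.12 CPM after Ezh2-Y726D, and the groups overlapped. Of 4 tested starburst genes, 1 rose (Slc35d3, by 0.88 on the log2 scale) and none fell. The part of ganglion cells, starburst cells and bipolar cells in the fall of Isl1 was not tested.

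Lhx4, another LIM homeodomain factor, had the smallest P value of the 8. It was at 86.9, 80.9 and 85.9 CPM in GFP and at 48.7, 49.4 and 52.5 CPM after Ezh2-Y726D, a log2 fold change of -0.76 (SE 0.0505, adjusted P = 2.54e-12, edgeR). The groups were far apart relative to their spread, with SDs of 3.22 and 2.00 CPM (n = 3 libraries each). Its close relative Lhx3 was at 8.24, 4.51 and 6.14 CPM in GFP and at 5.04, 4.21 and 3.29 CPM after Ezh2-Y726D, and fell by 0.75 on the log2 scale (adjusted P = 0.00114, edgeR) although its groups overlapped.

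Lhx4 is also known for cone photoreceptors, and cone genes were lower in the same libraries. Of 10 cone genes 8 fell and none rose, with a median log2 fold change of -0.63, and their summed level was 504 to 526 CPM in GFP and 341 to 360 CPM after Ezh2-Y726D. Cnga3, a channel subunit, fell by 0.81, Gngt2 by 0.78 and Gnat2, the alpha subunit of cone transducin, by 0.72 on the log2 scale. How much of the Lhx4 counts came from cones was not tested. Rod genes did not move this way, with 3 of 12 higher, among them Cnga1 by 0.19 and Gnat1 by 0.12 on the log2 scale, and 1, Gngt1, lower by 0.34.

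Cabp5 was the most abundant of the 8 genes per length. It was at 110, 125 and 111 CPM in GFP and at 71.0, 76.2 and 78.9 CPM after Ezh2-Y726D, without overlap, a log2 fold change of -0.61 (SE 0.0509, adjusted P = 2.59e-10, edgeR). Other members of its calcium-binding protein family differed in direction. Cabp2 fell from 4.39 to 5.31 CPM in GFP to 2.44 to 2.69 CPM, a log2 fold change of -0.93, while Cabp1 rose from 64.1 to 67.9 CPM to 86.2 to 93.8 CPM, a log2 fold change of 0.44, and Cabp4, known for photoreceptor terminals, had a log2 fold change of -0.17 and was not called (adjusted P = 0.0831, edgeR).

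Bhlhe23, a basic helix-loop-helix factor needed for the maturation of rod bipolar cells, had the smallest change among the genes that were called. It was at 15.2, 12 and 15.8 CPM in GFP and at 11.6, 10.3 and 10.9 CPM after Ezh2-Y726D. The groups came close to each other, with GFP replicate 2 just above Ezh2-Y726D replicate 1, and its log2 fold change was -0.41 (SE 0.0965, adjusted P = 0.00151, edgeR). Without GFP replicate 1 it was -0.32 and no longer called (adjusted P = 0.0835, edgeR). Of its exonic bases 5.71% overlap Gm14343 on the same strand.

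**Figure D2:**
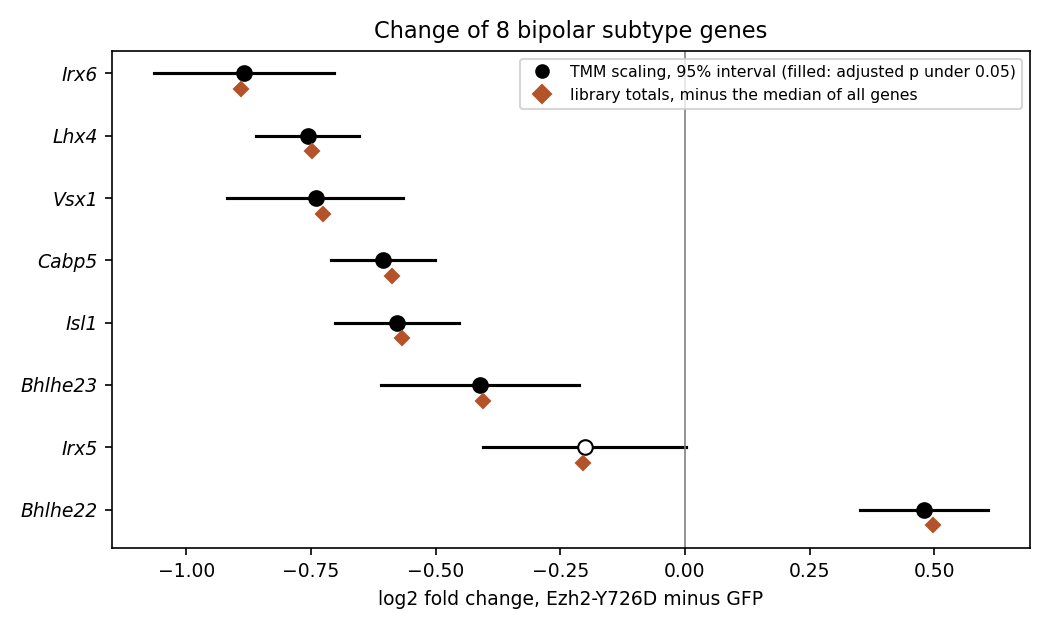
Log2 fold change of each gene after Ezh2-Y726D relative to GFP with TMM scaling (circles, 95% interval; filled where the adjusted P is under 0.05) and with library totals minus the median of all genes (diamonds). Irx6 is at -0.88 and -0.89 and Bhlhe22 at 0.48 and 0.50, and the scaling shifts all genes by nearly the same amount.

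The size of the change differed among the genes known for the same cells. Per kb of exonic length, the mean levels in GFP were 45.7 CPM per kb for Cabp5, 14.7 for Lhx4, 13.5 for Bhlhe22, 12.4 for Isl1, 5.90 for Irx6, 5.69 for Bhlhe23, 5.37 for Vsx1 and 4.36 for Irx5. The SDs were 3.32, 0.56, 1.24, 0.443, 0.596, 0.807, 0.189 and 0.133 CPM per kb in the same order (n = 3 libraries), so that Lhx4 and Bhlhe22, Bhlhe22 and Isl1, and Irx6, Bhlhe23 and Vsx1 did not differ beyond their spread. After Ezh2-Y726D, the mean levels were 29.8 CPM per kb for Cabp5, 19.3 for Bhlhe22, 8.74 for Lhx4, 8.40 for Isl1, 4.33 for Bhlhe23, 3.74 for Irx5, 3.25 for Vsx1 and 3.10 for Irx6, with SDs of 1.58, 1.35, 0.348, 0.555, 0.256, 0.505, 0.353 and 0.104 CPM per kb. Lhx4 and Isl1, Bhlhe23 and Irx5, Irx5 and Vsx1, and Vsx1 and Irx6 did not differ beyond their spread. Bhlhe22 thus stood above Lhx4 and Isl1 in these libraries, and the mean of Irx6 went from above that of Irx5 to below it, although the 2 genes overlapped after Ezh2-Y726D, where Irx6 was at 3.21 and Irx5 at 3.17 CPM per kb in replicate 2.

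To compare the genes without scaling the libraries, their counts were set in ratio within each library. The ratio of Bhlhe22 to Vsx1 was 2.34, 2.22 and 2.07 in GFP and 5.02, 5.25 and 5.48 after Ezh2-Y726D. That of Bhlhe22 to Lhx4 was 0.571, 0.545 and 0.483 in GFP and 1.43, 1.24 and 1.2 after Ezh2-Y726D. The groups did not overlap for the ratio of Bhlhe22 to any of the other 7 genes, with log2 differences from 0.75 (to Irx5) to 1.45 (to Irx6). That separation was fixed by the levels given above, where Bhlhe22 was wholly higher after Ezh2-Y726D and the other 7 genes wholly lower. It is therefore no further support, and only the sizes of the differences are added by these ratios of Bhlhe22. Relative to Isl1 the ratio was 0.979, 0.888 and 0.877 in GFP and 2.27, 1.78 and 1.81 after Ezh2-Y726D, and relative to Bhlhe23 it was 3.26, 3.68 and 2.63 in GFP and 6.02, 5.95 and 5.77 after Ezh2-Y726D. Among 16 ratios computed, these and that of Irx6 to Irx5 had exact permutation P values of 0.1, the smallest that the design allows, and adjusted P values of 0.114.

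**Figure D3:**
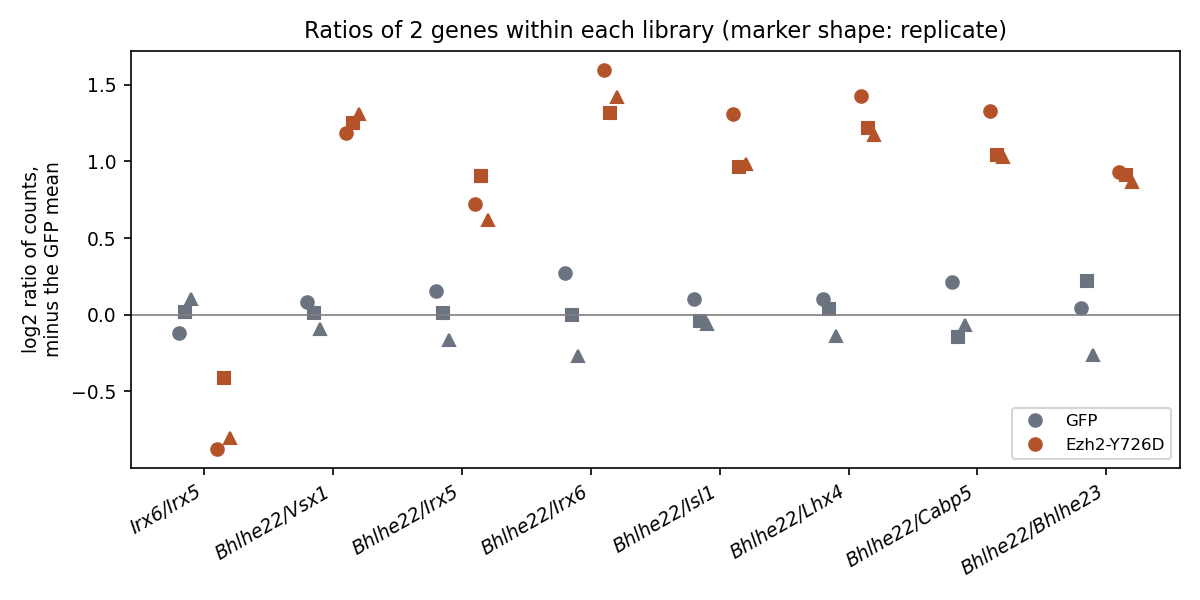
Log2 ratio of the counts of 2 genes in each library, minus the mean of the GFP libraries. Bhlhe22 rose by 1.25 relative to Vsx1, Irx6 had a difference of -0.70 relative to Irx5, and the groups are apart in all 8 ratios shown. For the ratios of Bhlhe22 this follows from its higher level and the lower levels of the other genes.

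Genes outside the 8 that are known for bipolar cells were counted from lists, which were chosen with earlier results of these data known. Of 6 genes listed for bipolar cells in general, some of which are known for only part of the types or for other cells too, 5 fell and none rose (median log2 fold change -0.42). Cabp2 fell by 0.93, Otx2, a homeodomain factor of bipolar cells and photoreceptors, by 0.56 and Gnb3, a G protein subunit of ON bipolar cells and cones, by 0.44 on the log2 scale. Of 9 genes of the mGluR6 cascade, 5 fell and none rose (median -0.32), with Nyx at -0.55, Gng13 at -0.45 and Trpm1, the transduction channel, at -0.38.

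The genes of rod bipolar cells were split. Of 5, 2 rose, 1 fell and 2 were not called (median 0.14). Prkca, the kinase that marks rod bipolar cells, was at 153, 159 and 156 CPM in GFP and at 196, 194 and 200 CPM after Ezh2-Y726D, a log2 fold change of 0.34 (SE 0.039, adjusted P = 8.21e-08, edgeR), so that it moved against Bhlhe23 without overlap of its groups. Vstm2b rose by 0.62 on the log2 scale. Prkca is known for some amacrine cells as well.

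The genes listed for cone bipolar cells, some for many of the types and some for few, were split too. Of 21, 8 fell, 5 rose and 8 were not called (median -0.17). Scgn, a calcium-binding protein of cone bipolar cells, fell from 64.9 to 68.5 CPM in GFP to 36.8 to 39.6 CPM, a log2 fold change of -0.82. Grik1, the kainate receptor subunit through which OFF cone bipolar cells respond to glutamate, was at 134, 145 and 138 CPM in GFP and at 83.7, 85.4 and 81.9 CPM after Ezh2-Y726D, a log2 fold change of -0.73 (adjusted P = 3.1e-13, edgeR). Its paralogue Grik2 rose by 0.98. Kcng4, a potassium channel subunit, fell by 0.61, whereas the protocadherins Pcdh17 and Pcdh10 rose by 0.80 and 0.73 and the muscarinic receptor gene Chrm2 by 0.71 on the log2 scale, all of which passed the test. The part of cells other than bipolar cells in these changes was not tested.

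**Figure D4:**
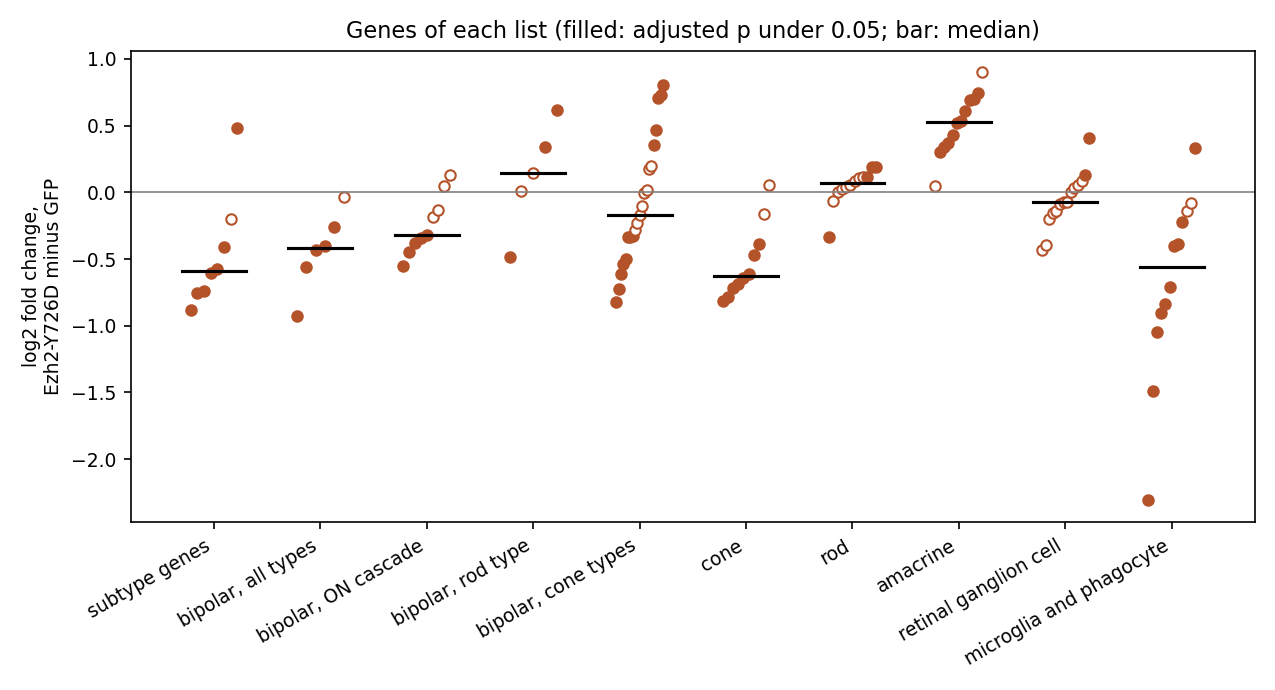
Log2 fold change after Ezh2-Y726D relative to GFP for each tested gene of the subtype genes and of 9 marker lists, filled where the adjusted P is under 0.05, with the median as a bar. The medians are -0.59 for the subtype genes, -0.63 for cone genes, 0.53 for amacrine genes and -0.07 for ganglion cell genes.

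Microglia and phagocyte genes were lower in the same libraries. Of 12, 9 fell and 1, P2ry12, rose by 0.33 on the log2 scale, and their summed level was 1070 to 1200 CPM in GFP and 616 to 721 CPM after Ezh2-Y726D. Gpnmb, Spp1 and Aif1 fell by 2.31, 1.49 and 1.04 on the log2 scale. Of 10 Müller glia genes 3 rose and 3 fell, among them Gfap by 0.29 on the log2 scale. The part of these cells in the falls of the subtype genes was not tested.

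For each of the 7 genes that were called, the genes with the most similar course over the 6 libraries were looked up among genes of 0.5 to 2 times its mean level, by the root-mean-square difference of log2(CPM + 0.5) centred on each gene's mean. For Irx6 these were Rsad2 and Wls (differences of 0.029 and 0.032 among 5143 genes), for Lhx4 Arhgap45 and Nckap1l (0.032 and 0.039), for Vsx1 Tcf7 and Anxa4, and for Isl1 Psd4 and Icam1. Cabp5 was closest to Ifit2 and Ifngr1, Bhlhe23 to Gm37472 and Fgd3, and Bhlhe22 to Plk2 and Adgrb1. None of these genes was on a bipolar list, and with 2 groups of 3 libraries the course is mostly the difference between the groups.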

How the data were processed

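RNA-Seq was done with a kit for stranded total RNA on CD90.2-sorted cells, per the labels. The authors deposited 1 table of whole-number read counts per gene without normalization for 6 libraries, all of which were used. The submitters' processing notes name STAR 2.7.0d and GRCm38. The counting tool, its strand setting and the annotation are not given in the sources used here, so that counts of overlapping genes are uncertain. Symbols were found for 32325 of 32371 identifiers, and coordinates and exonic lengths are those of GENCODE vM21.

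Counts were scaled by TMM and tested with edgeR 4.0.16 in R 4.3.3 (filterByExpr with a minimum of 10 counts, quasi-likelihood test, group as the only term), with Benjamini-Hochberg adjustment over 18138 genes. The SE of a log2 fold change is its size over the root of its F statistic. The fit was tested on simulated data. Pairs of libraries within a group differed by 1.49 to 3.03 chi-square per degree of freedom, so that none was a copy of another.

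The 9 genes and the marker lists were chosen with earlier results of these data known. All 8 measured genes are named, and from each list up to 3 called genes per direction with the largest changes, further genes being relatives of the 8 or chosen with their values in view. The ratios between genes were chosen after the values were seen. Some genes of the lists, and 8 of the 16 ratios, are counted but not reported here. Alternatives were RLE factors, library totals with and without CT010467.1, DESeq2 1.42.0, no filter or at least 10 counts in every library, a replicate block, each library left out, GFP replicate 1 as the only GFP library, counts thinned to 4460732 per library, and an adjusted P under 0.01.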

Additional observations from a re-analysis of the deposited data

How the results depend on the processing

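Library totals in place of TMM factors moved the median of all genes to 0.49 on the log2 scale, and 0 of the 8 genes were called higher and 0 lower by edgeR's quasi-likelihood test, while 1, Bhlhe22, had an unadjusted P under 0.05 (0.0115). Of all genes, 46 were called higher and 19 lower with that scaling, against 2525 and 2463 with TMM. The log2 fold changes of Irx5 and Bhlhe23 became 0.29 and 0.087, which is below the median of all genes. Relative to that median, the 8 genes were at -0.89 (Irx6) to 0.50 (Bhlhe22). Where CT010467.1 was left out of the library totals, the same numbers of the 8 genes were called as with TMM, 6 lower and 1 higher. Under the remaining alternatives, DESeq2 among them, 5 or 6 of the 8 genes were called lower and 1 higher, and each gene kept its direction. One of these kept GFP replicate 1 as the only GFP library, so that the spread came from the Ezh2-Y726D libraries alone, the lone library was assumed to vary like them, and its calls say nothing about stability. With 1 library left out, 5 to 6 genes were called lower and 1 higher, and of all genes 1919 to 2314 were called higher and 1853 to 2288 lower. Irx5 was called under none of the alternatives other than library totals (adjusted P from 0.0646 to 0.491 in edgeR or DESeq2), nor with library totals (0.572). With the replicate number as a block, 6 of the 8 genes were lower and 1 higher, Bhlhe22 at 0.51. Libraries of the same number did not deviate together (correlations of 0.072, 0.034 and 0.024 across genes), so that the number was not taken as a pairing. Depth limits Irx5 and Bhlhe23 most, with 85 to 103 counts in GFP replicates 2 and 3.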
